A study of Mus musculus with 4 samples.

Results

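Sox2, Sox8, Sox9, Lhx2, Rax, Six3, Six6, Nfia, Nfib and Nfix encode transcription factors of retinal progenitors and Müller glia, and their transcript levels were examined in sorted cells of the mouse retina. The 10 genes were taken by symbol, as known progenitor and glial factors, but with earlier results of these data known. Each had 1 row of OK status in all 4 libraries among 21831 genes in all. Shares over all genes are given beside counts of the 10 as description, not as a test. The retinas came from slc:ICR mice at postnatal day 12, and were either wild type or Ezh2-CKO, a conditional knockout made by crossing Ezh2-floxed mice with mice in which Dkk3-Cre acts in retinal progenitors. Cells were sorted into a Cd73-positive fraction (Cd73P), which holds rod photoreceptors, and a Cd73-negative fraction (Cd73N), which holds the other retinal cells, and RNA from each of the 4 groups gave 1 library. The number of retinas behind each library is not given in the sources used here. Levels are FPKM, sequenced fragments of a gene scaled by its exon length and by the library total, so that levels of different genes can be compared. Ratios are log2 ratios of (FPKM + 1), which understate the change of weakly expressed genes, and a gene was called higher or lower at a 1.5-fold difference on that scale. With 1 library per group no difference has a replicate check, no p-value was computed, and the standard errors (SE) reflect counting error alone.

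SOX factors bind DNA through an HMG box, and Sox2 keeps retinal progenitors multipotent and stays on in Müller glia, the main glial cell of the retina. Sox8 and Sox9 are close relatives of one another and act in gliogenesis. Lhx2, Rax, Six3 and Six6 are homeobox factors that specify the eye field in the early embryo, and Lhx2 and Rax are used again in Müller glia, whereas the nuclear factor I proteins Nfia, Nfib and Nfix promote the late-born fates of the retina, among them Müller glia and bipolar cells. EZH2 is the methyltransferase of Polycomb repressive complex 2, which places trimethylation on lysine 27 of histone H3, often at CpG-rich promoters of developmental regulators.

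Because that complex is known for CpG-rich promoters, the sequence just upstream of the members was read from the RefSeq promoter table (GRCm38.p6) and each window was found exactly once in the mm9 assembly (NCBIM37). Of the 10 members, 7 had a window that is used here (Sox2, Sox8, Lhx2, Six3, Six6, Nfia and Nfix), and the 250 bases before the transcript start were taken. Those of Sox2 and Lhx2 are shown as members that rose with the Ezh2-CKO label in Cd73N, that of Six3 as the member with the lowest ratio in Cd73P, and that of Nfia as a member that was not called in either fraction between genotypes. The windows are chr3:34548667-34548916 for Sox2, chr2:38206578-38206827 for Lhx2, chr17:86019924-86020173 for Six3 and chr4:97248384-97248633 for Nfia, all on the plus strand, and none overlaps an annotated exon. Capitals mark the nuclear factor I core motif TTGGC or its reverse complement GCCAA.
Sox2: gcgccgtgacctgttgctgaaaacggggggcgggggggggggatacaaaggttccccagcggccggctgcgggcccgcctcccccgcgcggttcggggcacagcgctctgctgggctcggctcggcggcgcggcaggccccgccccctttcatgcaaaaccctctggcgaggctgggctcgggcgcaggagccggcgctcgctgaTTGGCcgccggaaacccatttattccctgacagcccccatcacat
Lhx2: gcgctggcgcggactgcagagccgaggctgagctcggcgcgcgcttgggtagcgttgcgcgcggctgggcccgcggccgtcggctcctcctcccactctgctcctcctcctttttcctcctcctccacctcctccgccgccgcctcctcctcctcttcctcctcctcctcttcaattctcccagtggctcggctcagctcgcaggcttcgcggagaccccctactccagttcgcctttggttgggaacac
Six3: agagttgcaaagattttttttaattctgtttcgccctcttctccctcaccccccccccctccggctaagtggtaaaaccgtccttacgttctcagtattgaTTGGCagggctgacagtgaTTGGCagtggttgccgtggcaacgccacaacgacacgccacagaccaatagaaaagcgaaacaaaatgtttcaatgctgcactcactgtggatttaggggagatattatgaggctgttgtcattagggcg
Nfia: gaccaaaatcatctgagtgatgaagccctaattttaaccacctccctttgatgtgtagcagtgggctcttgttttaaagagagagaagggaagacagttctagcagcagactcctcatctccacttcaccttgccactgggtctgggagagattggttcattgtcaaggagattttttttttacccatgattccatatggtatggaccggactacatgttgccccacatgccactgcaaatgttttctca

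The Sox2 window held 27 CpG dinucleotides and that of Lhx2 held 24, which is more than in 91.4% and 88.0% of all 32851 windows of this length. The Six3 window held 10, and the Nfia window held only 1, with 7.87% of windows holding fewer. The CpG counts of the other members lay between, with 18 for Sox8, 17 for Six6 and 11 for Nfix, whose nearest window starts 20258 bases inside the listed locus. Over the 7 windows, 4 held more CpG than the upper quartile of all windows and 6 held more than the median (6.00). Nfia has 2 listed starts, and only the window at the outer end of its locus was read. The CpG count of Nfia therefore does not cover its other start. The motif TTGGC was found on either strand in 4 of 7 windows (Sox2, Sox8, Six6 and, as 2 matches, Six3), and in 41.5% of all windows. In Sox2, Six3 and Six6 it formed part of ATTGGC, which overlaps ATTGG, the CCAAT box read on the opposite strand. This longer form was looked for after these sequences had been seen, and 13.5% of all windows held it. The homeodomain motif TAATTA was in 1 of 7 windows, that of Nfix, against 4.84% of all windows. The SOX motif AACAAT and the TATA box TATAAA were in 0 of 7, against 9.42% and 12.4%. These matches describe letters in the windows and were not measured as binding.

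The labels were checked first. In Cd73N, wild type gave 14.1 FPKM for Ezh2 and Ezh2-CKO gave 15.9 (log2 ratio 0.17, SE 0.056), and in Cd73P the values were 5.38 and 3.45 (-0.52, SE 0.080), so the level of Ezh2 went against the genotype label in Cd73N. A level summed over all exons cannot show the loss of a floxed exon, and the knockouts are therefore called the libraries labelled Ezh2-CKO, or CKO-labelled. Nt5e, which encodes Cd73, had 0.844 and 0.609 FPKM in Cd73N against 125 and 123 in Cd73P, as the fraction labels say. Xist also differed between genotypes (52.2 and 240 FPKM in Cd73N, 47.0 and 95.6 in Cd73P), so genotype and the sex of the animals cannot be told apart. Depth relative to Cd73N wild type, read from the worth of 1 read in the lowest values, was 1.20 in CKO-labelled Cd73N, 0.991 in Cd73P wild type and 1.03 in CKO-labelled Cd73P. That worth was the most common ratio among low genes, held by 100 of 858, 50 of 567 and 48 of 597 of them in the same order. These depths are therefore approximate, and absolute depth is unknown.

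In Cd73N, 7 of the 10 factors rose in the CKO-labelled library (Sox2, Sox8, Sox9, Lhx2, Rax, Nfib and Nfix), where 7.18% of the 21705 genes compared were called higher. None of the 10 fell, where 1.71% of genes were called lower, and Six3, Six6 and Nfia were not called. The median log2 ratio of the 10 factors was 1.19, beside 0.000 over all genes. In Cd73P, 1 of 10 factors rose (Sox2) and 2 fell (Six3 and Six6), where 2.26% and 2.39% of 21706 genes were called higher and lower, and the median log2 ratio of the factors was 0.29, beside 0.000 over all genes. Sox2 and Six6 lost their Cd73P calls with a pseudocount of 5 (log2 0.339 and -0.476) and at a 2-fold threshold. In bulk RNA, a change in the number of cells of a type and a change in RNA per cell cannot be told apart.

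**Figure D1:**
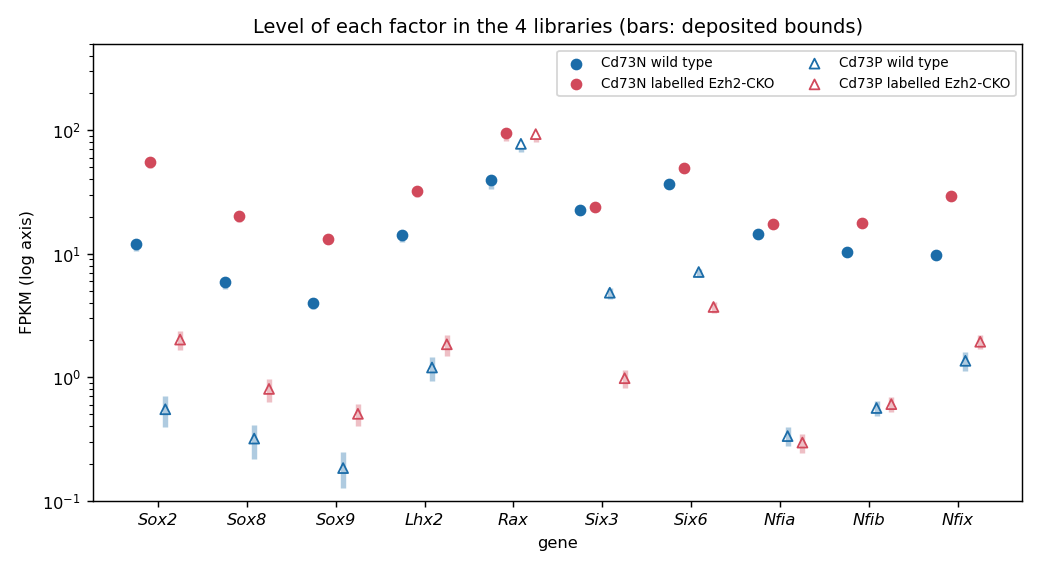
FPKM of each factor (log axis) in the Cd73N (filled circles) and Cd73P (open triangles) libraries of wild type (blue) and of the CKO-labelled retina (red), with the deposited lower and upper bounds as pale bars. Apart from Rax, every factor lay lower in both Cd73P libraries than in both Cd73N libraries, and Rax lay between 39.4 and 95.4 FPKM in all 4.

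Sox2 (chromosome 3, 34548927 to 34551382, protein coding) had 12.1 FPKM in wild-type Cd73N, 55.3 in CKO-labelled Cd73N, 0.551 in wild-type Cd73P and 2.02 in CKO-labelled Cd73P. The deposited bounds of these 4 values did not overlap, and within each fraction the CKO-labelled library was the higher. The log2 ratio was 2.11 in Cd73N (SE 0.053) and 0.96 in Cd73P (SE 0.11), the highest ratio of any of the 10 factors in each fraction. Sox2 moved from rank 6 among the 10 factors in Cd73N wild type to rank 2 in CKO-labelled Cd73N, and from rank 7 to rank 3 in Cd73P. Its locus lies within Sox2ot, a noncoding transcript on the same strand, which was at 2.33, 3.48, 0.174 and 0.122 FPKM in the same order of libraries. The ratio of Sox2 to Sox2ot was 5.18 and 3.16 in the wild-type libraries and 15.9 and 16.6 in those labelled Ezh2-CKO, so the host transcript did not move in step with Sox2. Reads from shared exon sequence cannot be assigned to 1 of the pair.

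Sox8 (chromosome 17, 25702838 to 25707631, protein coding) was at 5.93 and 20.1 FPKM in Cd73N (wild type, then CKO-labelled), and at 0.319 and 0.805 in Cd73P. Sox9 (chromosome 11, 112643524 to 112649071, protein coding) was at 3.99 and 13.1 FPKM in Cd73N and at 0.184 and 0.506 in Cd73P. For both genes the order of the libraries was that of Sox2, and no 2 libraries had overlapping bounds. In Cd73N the log2 ratio was 1.60 for Sox8 (SE 0.068) and 1.502 for Sox9 (SE 0.069). In Cd73P neither was called, with 0.45 for Sox8 (SE 0.087) and 0.35 for Sox9 (SE 0.062), although the plain FPKM ratios were 2.52 and 2.75. These levels lie below 1 FPKM, where the added 1 weighs most, and with a pseudocount of 0.1 a total of 3 factors were higher in Cd73P. The level of Sox8 stayed at 1.48 to 1.74 times that of Sox9 in the 4 libraries, whereas the ratio of Sox2 to Sox9 was 3.03 and 2.99 in wild type and higher in the CKO-labelled ones (4.21 in Cd73N).

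Other SOX genes were mostly weakly expressed. Of 16 SOX relatives, 6 reached 1 FPKM in each Cd73N library and 2 in each Cd73P library. The added 1 weighs most below that level, so the calls do not show whether the family as a whole shared the pattern. Of the 16, 2 rose in Cd73N (Sox11 and Sox13) and 1 fell (Sox3), where 7.18% and 1.71% of all genes were called. In Cd73P 0 rose and 1 fell (Sox4), where 2.26% and 2.39% of all genes were called. Their median log2 ratios were 0.04 in Cd73N and -0.07 in Cd73P. Sox4, the relative with the highest level, was at 61.6 and 54.0 FPKM in Cd73N and at 5.11 and 1.75 in Cd73P (log2 -1.15, SE 0.096). Sox6 was at 14.8 and 15.9 FPKM in Cd73N and at 0.589 and 0.449 in Cd73P, and Sox12 ranged only from 11.3 to 13.4 FPKM over the 4 libraries. Sox4 and Sox12 are near relatives of Sox11, which rose from 0.764 to 1.89 FPKM in Cd73N. Sox3, Sox11 and Sox13 are named because they make up the counts, after their values were seen.

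Lhx2 (chromosome 2, 38206828 to 38225248, protein coding) had 14.3 FPKM in wild-type Cd73N, 32.4 in CKO-labelled Cd73N, 1.20 in wild-type Cd73P and 1.85 in CKO-labelled Cd73P. Its bounds did not overlap between any of the libraries, and both Cd73P values were far below both Cd73N values. The log2 ratio was 1.13 in Cd73N (SE 0.055), a rise, and 0.37 in Cd73P (SE 0.13), which was not called. Among 11 LIM homeobox relatives, 1 rose in Cd73N and 2 fell, and in Cd73P 4 fell and 0 rose. Isl1, a factor of bipolar, amacrine and ganglion cells, fell in Cd73N from 217 to 109 FPKM and in Cd73P from 12.3 to 2.52. Lhx3 was at 62.9 and 16.6 FPKM in Cd73N (log2 -1.86, SE 0.046) and at 0.739 and 0.0945 in Cd73P. Lhx4 was at 99.0 and 77.6 FPKM in Cd73N, which was not called (log2 -0.35), and fell from 2.76 to 0.970 in Cd73P. The 1 relative that rose with Lhx2, Lhx9, went from 0.749 to 4.06 FPKM and is named after its values were seen, as is Isl2, the remaining one that fell in Cd73P (1.15 and 0.383 FPKM).

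Rax (chromosome 18, 66094293 to 66098743, protein coding) had the highest FPKM of the 10 factors in every library and was the only one that was not lower in Cd73P than in Cd73N in wild type. It had 39.4 FPKM in wild-type Cd73N, 95.4 in CKO-labelled Cd73N, 77.7 in wild-type Cd73P and 93.1 in CKO-labelled Cd73P. The 2 CKO-labelled libraries had overlapping bounds, and Cd73N wild type stood alone as the lowest. Rax rose in Cd73N with a log2 ratio of 1.26 (SE 0.038), and its ratio in Cd73P was 0.26 (SE 0.033). Between fractions the log2 ratio of Cd73P over Cd73N was 0.96 in wild type (SE 0.041) and -0.04 in the CKO-labelled libraries (SE 0.029), which turned to 0.234 and 0.179 when libraries were scaled by the median ratio or to equal FPKM sums. Rax was thus 197% of its Cd73N level in wild-type Cd73P and 97.5% in the other genotype. All 4 values of Rax lay above their own deposited upper bounds. In CKO-labelled Cd73N this also held for Sox2, Lhx2, Six3 and Six6, and in wild-type Cd73N for Six6. The SE and bounds may therefore understate the error of these values. Rod markers were measured beside Rax, since rods express it. Their summed FPKM was 1667 and 1697 in Cd73N, where 7 of 12 were lower and 0 higher in the CKO-labelled library, and 17393 and 24094 over the 11 markers with OK status in Cd73P. Their part in the Rax values was not tested.

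Six3 (chromosome 17, 86020174 to 86025531, protein coding) had 22.6 FPKM in wild-type Cd73N, 24.1 in CKO-labelled Cd73N, 4.84 in wild-type Cd73P and 0.983 in CKO-labelled Cd73P. The 2 Cd73N libraries had overlapping bounds, while CKO-labelled Cd73P lay below all the others. The log2 ratio was 0.09 in Cd73N (SE 0.038) and fell by 1.56 in Cd73P (SE 0.084). Six6 (chromosome 12, 74040932 to 74045886, protein coding), the closest relative of Six3, was at 36.7 and 49.9 FPKM in Cd73N and at 7.12 and 3.71 in Cd73P. Its bounds did not overlap between any of the libraries, and the CKO-labelled library was the higher in Cd73N and the lower in Cd73P. The log2 ratio of Six6 was 0.43 in Cd73N (SE 0.030), below the 1.5-fold threshold, and fell by 0.79 in Cd73P (SE 0.076). The FPKM of Six6 was 1.47 to 2.07 times that of Six3 in the first 3 libraries and 3.77 times in CKO-labelled Cd73P. Six3os1, a noncoding gene that lies just upstream of Six3 and does not overlap it, was at 38.0 and 63.3 FPKM in Cd73N and at 2.56 and 2.72 in Cd73P, so that it was 1.68, 2.63, 0.529 and 2.77 times the level of Six3.

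Bipolar and cone markers were lower too in the Cd73P CKO-labelled library, beside the falls of Six3 and Six6. Of 10 bipolar markers 7 were lower and 0 higher, with a summed FPKM of 183 in wild type and 59.4 in the other library. Of 8 cone markers 6 were lower and 0 higher (summed FPKM 251 and 115). Of 10 amacrine markers only Gad1 was called lower (1.40 and 0.215 FPKM, named after its values were seen). However, 0 of the 10 had a ratio above 0, and their median log2 ratio was -0.26. Their summed FPKM was 27.8 and 22.4, of which the glycine transporter Slc6a9 made up most (24.1 and 21.4). Slc6a9 was lower in Cd73N (6.46 and 8.96 FPKM) than in Cd73P, so these sums describe that gene more than the amacrine list. The acetylcholine transporter Slc18a3 was at or near 0 in both libraries (0.00985 FPKM in wild type and 0 in the CKO-labelled library). Most amacrine markers lay below 1 FPKM in Cd73P, where the added 1 weighs most. Microglia markers were not called in Cd73P (0 of 8, summed FPKM 18.4 and 24.8). In Cd73N, where Six3 and Six6 were not called, 7 of 10 bipolar markers were also lower (1815 and 1031) and 3 of 8 cone markers were higher (3795 and 5333). The part of these cells in the values of Six3 and Six6 was not tested.

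Relatives of Six3 and Six6 were examined beside them. Six4 reached only 0.791 FPKM in CKO-labelled Cd73N and 0.814 in CKO-labelled Cd73P, and was called higher in both (log2 0.665 and 0.844). Six5 rose from 0.562 to 2.85 FPKM in Cd73N and was at 0.0411 and 0.0397 in Cd73P. Six4 (74201246 to 74214232) is on chromosome 12, as is Six6, whose ratio in Cd73P went the other way. Six2, the neighbour of Six3 on chromosome 17, was below 1 FPKM in every library.

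Nfia (chromosome 4, 97248634 to 97785567, protein coding) had 14.5 FPKM in wild-type Cd73N, 17.3 in CKO-labelled Cd73N, 0.334 in wild-type Cd73P and 0.296 in CKO-labelled Cd73P. Nfib (chromosome 4, 81936077 to 82151212, protein coding) was at 10.3 and 17.7 FPKM in Cd73N and at 0.564 and 0.606 in Cd73P. Nfix (chromosome 8, 87231498 to 87324239, protein coding) was at 9.81 and 29.2 FPKM in Cd73N and at 1.36 and 1.94 in Cd73P. All 3 were higher in both Cd73N libraries than in either Cd73P library, and the bounds of the Cd73P libraries overlapped for Nfia and Nfib but not for Nfix. In Cd73N the log2 ratios were 0.24 for Nfia (SE 0.033), 0.73 for Nfib (SE 0.038) and 1.48 for Nfix (SE 0.053), so that Nfib and Nfix rose and Nfia was not called. Nfib was no longer called with a pseudocount of 5 (0.571) or at a 2-fold threshold. In wild-type Cd73N the order was Nfia, Nfib, Nfix, with overlapping bounds for Nfib and Nfix, and in the CKO-labelled library it was Nfix, Nfib, Nfia, with overlapping bounds for Nfib and Nfia. In Cd73P none of the 3 was called, with log2 ratios of -0.04 for Nfia (SE 0.044), 0.04 for Nfib (SE 0.052) and 0.32 for Nfix (SE 0.095). Nfic, the fourth gene of the family, was at 11.4 and 15.5 FPKM in Cd73N and at 32.3 and 30.1 in Cd73P, not called between genotypes and higher in Cd73P than in Cd73N in both. The listed locus of Nfia overlaps E130114P18Rik, which was at 28.8, 55.8, 1.10 and 2.01 FPKM, and reads of the overlap cannot be told apart because the cDNA was made without marking strand.

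**Figure D2:**
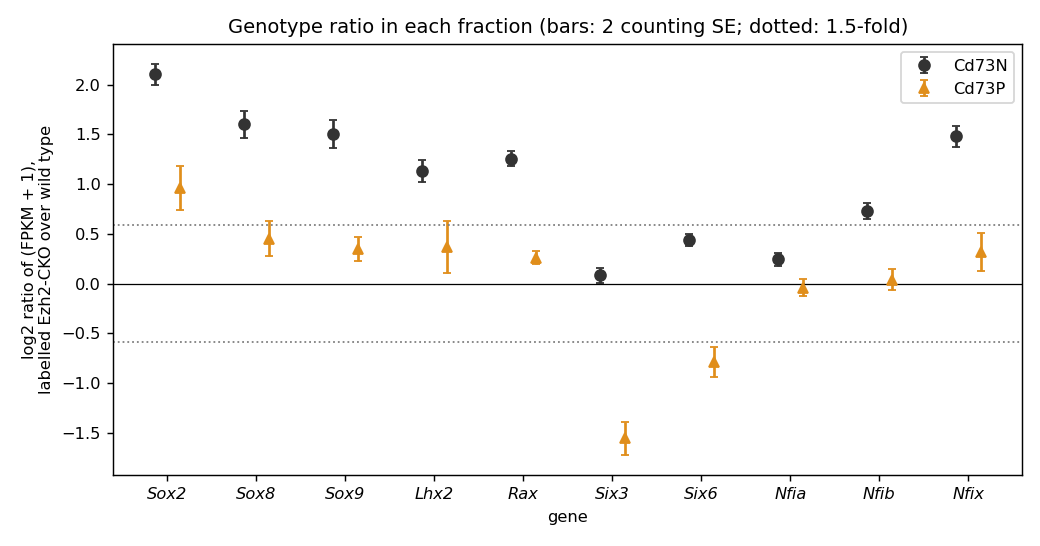
Log2 ratio of (FPKM + 1), CKO-labelled library over wild type, for each factor in Cd73N (circles) and Cd73P (triangles), with bars of 2 counting SE and dotted lines at 1.5-fold. All 10 Cd73N ratios lie above 0, from 0.09 (Six3) to 2.11 (Sox2), and for each factor the Cd73P ratio lies below the Cd73N ratio.

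The difference between the Cd73P and Cd73N ratios of a factor was near -1.15 on the log2 scale for Sox2 (-1.14), Sox8 (-1.15), Sox9 (-1.16) and Nfix (-1.16), and reached -1.64 for Six3. With the added 1 it was smallest in size for Nfia, at -0.29. The added 1 weighs on these differences, since most Cd73P levels are low. In plain FPKM ratios Sox2 was 4.58 times its wild-type level in Cd73N and 3.67 times in Cd73P. For Sox9 these ratios were 3.29 and 2.75, for Lhx2 they were 2.27 and 1.54, and for Six3 they were 1.06 and 0.203. For Sox8 they were 3.38 and 2.52, for Nfix 2.97 and 1.43, and for Nfia 1.20 and 0.884. In plain ratios Nfix thus lay apart from Sox2, Sox8 and Sox9, and the difference of Nfia was not the smallest. The differences between fractions were not tested.

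Between fractions, 9 of the 10 factors were lower in Cd73P than in Cd73N in wild type and 1, Rax, was higher, where 27.9% of 21704 genes were called lower and 9.07% higher. In the CKO-labelled libraries the same 9 were lower and 0 were higher, where 29.1% and 8.40% of 21703 genes were called. The median log2 ratio of the factors was -2.30 in wild type and -3.54 in the CKO-labelled libraries, beside -0.05 and -0.09 over all genes. These comparisons share their libraries with those between genotypes. In wild type, Nfia had the lowest share, with a Cd73P level of 2.31% of that in Cd73N, followed by Sox2 at 4.56%, Sox9 at 4.61%, Sox8 at 5.39%, Nfib at 5.47% and Lhx2 at 8.43%. Nfix was at 13.9%, Six6 at 19.4% and Six3 at 21.4%. In the CKO-labelled libraries all of these shares were lower, and that of Six3 moved most, to 4.09%.

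**Figure D3:**
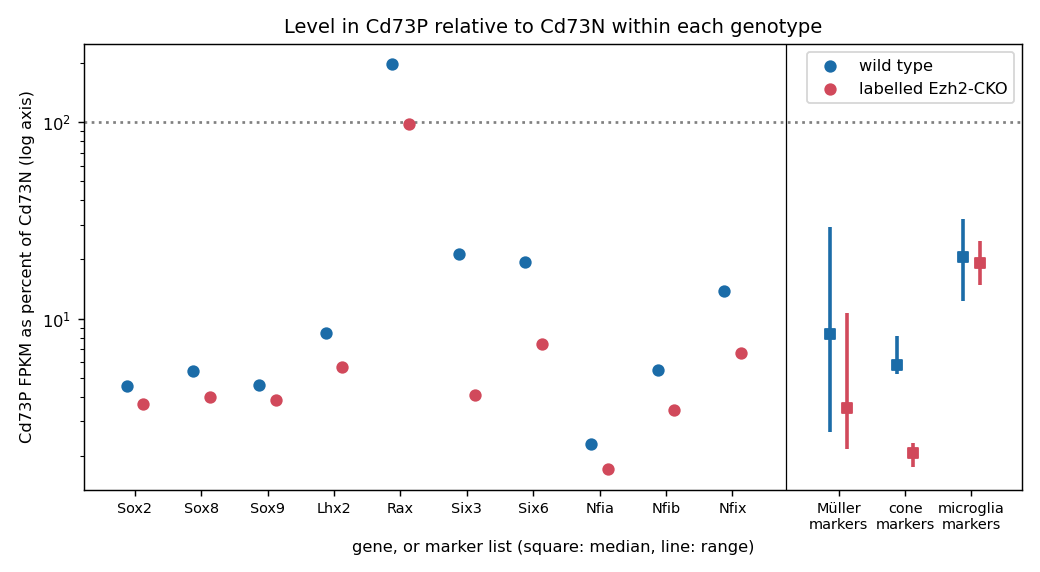
Cd73P FPKM as a percent of Cd73N FPKM (log axis) for each factor in wild type (blue) and in the CKO-labelled libraries (red), with the median (square) and range (line) of Müller glia, cone and microglia markers at the right. The shares of all factors but Nfia and Rax lie within the range of the Müller glia markers in both genotypes. Nfia lies below that range and Rax near or above the dotted line at 100%. In wild type, Six3, Six6 and Nfix lie above every Müller glia marker but Clu (29.2%), and within the range of the microglia markers (12.3% to 32.0%).

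Markers of Müller glia were measured beside the factors, on a list chosen with earlier results of these data known. It holds Apoe, Dkk3, Rlbp1, Dbi and Slc1a3, which the paper names among the genes most raised in Cd73N of Ezh2-CKO. Counts, medians and ranks against this list in Cd73N are therefore partly fixed by that choice and describe the values only. In the CKO-labelled Cd73N library all 14 markers were higher, with a median log2 ratio of 2.09 and a range from 1.01 (Dbi) to 3.16 (Aqp4). In Cd73P 11 of 14 were higher and 0 lower with a median of 0.94, where 1 of the 10 factors was higher and 2 were lower. The added 1 weighs more on the factors there, since most of their Cd73P levels are low. In plain Cd73P ratios the factors were at 3.67 (Sox2), 2.75 (Sox9), 2.52 (Sox8), 1.54 (Lhx2), 1.43 (Nfix) and 1.20 (Rax). Nfib was at 1.08, Nfia at 0.884, Six6 at 0.521 and Six3 at 0.203. Glul, Apoe and Dkk3, the 3 highest markers, were at 1.95, 1.93 and 5.41. The summed FPKM of the markers was 1445 and 6483 in Cd73N and 153 and 304 in Cd73P, and none was at 0. Among the highest, Glul, which makes glutamine synthetase, was at 257 and 1760 FPKM in Cd73N and at 32.8 and 63.9 in Cd73P, and Apoe was at 357 and 1532 in Cd73N and at 35.3 and 68.1 in Cd73P. Sox2 had a Cd73N ratio near the middle of these markers, with 6 of 14 above it. For Sox8, Sox9 and Nfix 11 of 14 markers had a larger ratio, for Lhx2 and Rax 13, and for Nfib, Nfia, Six3 and Six6 all 14. The median Müller marker in Cd73P was at 8.34% of its Cd73N level in wild type and at 3.50% in the CKO-labelled libraries. The part of Müller glia number or of carry-over into Cd73P in these values was not tested.

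Other cells with such factors were measured too. Of 5 astrocyte markers, 3 were higher in Cd73N and 0 in Cd73P (summed FPKM 9.22, 25.1, 2.76 and 3.88 over the libraries in the order used above), with Gfap as the highest. Of 12 markers of cycling cells and progenitors, only Ccnd1 was higher in Cd73N (9.06 and 14.5 FPKM) and 0 were called in Cd73P. Their summed FPKM was 103, 104, 69.1 and 63.4, of which Pcna made up most (78.5, 75.0, 58.7 and 53.5). Mki67, which marks dividing cells, was at 0.606 and 0.632 FPKM in Cd73N. Like Top2a, Cdk1, Aurkb and Ccnb1, it lay below 1 FPKM in every library, where the added 1 weighs most. Among the remaining lists in Cd73N, 4 of 8 microglia, 2 of 10 amacrine, 2 of 6 endothelial and 2 of 9 ganglion cell markers were higher, 1 ganglion cell marker was lower, and 0 of 5 horizontal cell and 0 of 6 pigment epithelium markers were called. In Cd73P, 1 of 6 endothelial markers was higher and 1 lower, and 2 of 6 pigment epithelium markers were lower. There 2 of 11 rod markers were higher, with no ganglion or horizontal cell marker called. Only 1 horizontal cell and 1 pigment epithelium marker reached 1 FPKM in wild-type Cd73N, and 0 ganglion cell markers did so in Cd73P. Since the added 1 weighs most at such levels, these lists could hardly give calls. The part of these cells in the levels of the factors was not tested.

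**Figure D4:**
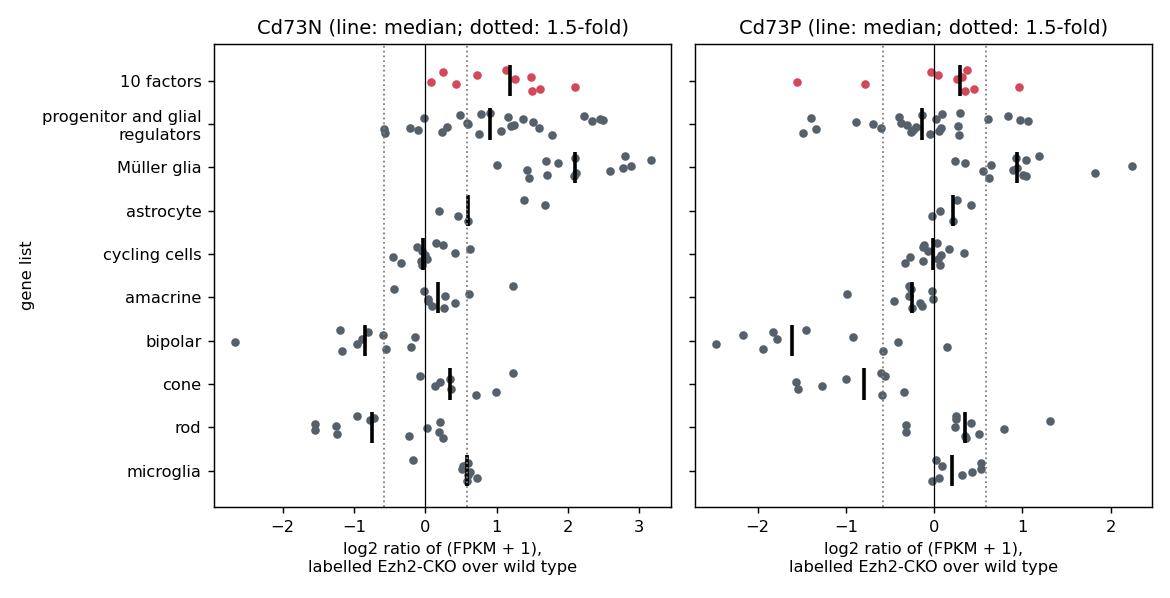
Log2 ratio of (FPKM + 1), CKO-labelled library over wild type, for each gene of 10 lists in Cd73N (left) and Cd73P (right), with the median of each list as a black line and dotted lines at 1.5-fold. The 10 factors (red) have a median of 1.19 in Cd73N, between those of the Müller glia markers (2.09) and of the other progenitor and glial regulators (0.91), and bipolar markers lie to the left of 0 in Cd73N.

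Regulators that act beside the 10 factors were examined as a list of 25 genes of the Notch, Id, Pax, Hedgehog and related pathways. In Cd73N 17 of 25 were higher and 0 lower, with a median log2 ratio of 0.91. In Cd73P 4 were higher and 6 lower, with a median of -0.13. Id1 and Id3, inhibitors of basic helix-loop-helix factors, rose in Cd73N from 25.0 to 142 and from 46.9 to 240 FPKM. In Cd73P they rose from 3.35 to 5.61 and from 3.69 to 8.75 FPKM. The other 2 genes that were higher in Cd73P were Hes1, a Notch target, and Id2, named after their values were seen. Hes1 had a plain FPKM ratio of 4.93 in Cd73N and was at 0.925 and 2.43 in Cd73P. Id2 was at 23.9 and 140 in Cd73N and at 2.12 and 5.14 in Cd73P. Among the 6 that were lower in Cd73P were Id4 (2.62 and 0.953 FPKM), Hey1 (6.47 and 1.84), Prox1, Meis2 and Nr2f2. These too are named after their values were seen.

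For each factor, the genes with the most similar course over the 4 libraries were sought among 9888 genes, as the Euclidean distance between log2(FPKM + 1) values after the mean of each gene was taken off. With 4 libraries, this describes likeness of shape only. The added 1 flattens low Cd73P values, so near genes can differ there in plain ratio. For example, wild-type Cd73P was at 13.9% of Cd73N for Nfix and at 1.82% for St8sia2, its nearest gene. The nearest to Sox2 were Npy (distance 0.090), Qrfpr (0.158) and Apoe (0.238), which is one of the Müller markers. Sox8 lay nearest to Mgll (0.131), Sema5a (0.138) and Gm5424 (0.159), and Sox9 to Spry1 (0.074), Nfix (0.124) and Col9a3. Nfix and Sox9 were each among the 3 nearest genes of the other, and Nfix was also near St8sia2 (0.094) and Sema5a (0.117). Lhx2 lay nearest to Spon2 (0.081), Pmp22 (0.081) and Chrdl1 (0.091).

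Rax had Cdc14a (0.104), Oat (0.188) and Nfkbiz (0.255) as its nearest genes, of which Oat, ornithine aminotransferase, was at 27.2, 56.0, 53.0 and 60.5 FPKM. Six3 was nearest to Slc38a1 (0.244), Vstm2b (0.248) and Car8 (0.257), and Six6 to Ralyl (0.201), Slc24a4 (0.259) and Scd2 (0.275). Nfia was nearest to Aspn (0.064), C1qtnf6 (0.098) and Kirrel3 (0.111), and Nfib to Ngfr (0.061), Nlgn1 (0.091) and Anxa5 (0.137). Ngfr, a neurotrophin receptor, was at 10.3, 18.7, 0.643 and 0.667 FPKM, close to the 4 values of Nfib in level as well as in course.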

How the data were processed

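Single-end reads of 36 bases were mapped by the authors to mm9 (TopHat2 2.0.8b, at most 50 hits for a read), and Cufflinks 2.1.1 gave FPKM. The deposited tables held FPKM, lower and upper FPKM bounds and a status for 23021 rows in each of 4 libraries, 1 per group, grouped by sample title. Bound columns were used as deposited for an SE (width taken as 4 SE), and 9 of 40 member values lay above their own upper bound. Small RNA symbols (727) were left out and 235 multi-row symbols summed, which gave 21831 genes. Ratios used a pseudocount of 1 and status OK in both libraries. Scripts (Python 3.11.15, pandas 2.3.3, numpy 2.4.6) were tested on simulated data. Coordinates are on mm9 with 1 added to listed starts.

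The members, gene lists and marker lists were chosen with earlier results of these data known. Named genes were the 10 members, Ezh2 and Nt5e, the highest 3 genes of a list (a selection of these is given), overlapping genes and the 3 nearest genes per member. A few genes named by it are left out of the text. Promoter windows held 250 bases rather than 300, to keep transcribed sequence out. Tfap2a and Tfap2b were matched by older symbols. Alternatives were pseudocounts, scalings, thresholds, filters and statuses. Since each group had 1 library, no library could be left out.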

Additional observations from a re-analysis of the deposited data

Results flagged for a closer look

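No difference below was tested, since each group had 1 library. They are cases in which the log2 ratios of the 2 fractions between genotypes, or of the 2 genotypes between fractions, had opposite signs.

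Among the 10 factors, Six3 differed most, with genotype ratios of 0.085 (Cd73N) and -1.558 (Cd73P), which differ by -1.643. The ratios of Six6 were 0.434 and -0.785, a difference of -1.219. The ratios of Nfia were 0.243 and -0.042, a difference of -0.285, and neither was called. For Rax the ratio of Cd73P over Cd73N was 0.963 (wild type) and -0.036 (libraries labelled Ezh2-CKO), a difference of -0.999. The second ratio was above 0 after median scaling (0.234) and sum scaling (0.179), so the signs were then the same.

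Among relatives, the Cd73P over Cd73N ratio of Six4 differed by 0.179 between genotypes, from ratios near 0. Six5 had genotype ratios of 1.300 (Cd73N) and -0.002 (Cd73P), which differ by -1.302. The difference was -0.513 for Nfic and -0.225 for Sox6, neither of which was called in either fraction. Ezh2 itself had a positive ratio in Cd73N and one of -0.521 in Cd73P, a difference of -0.691.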

How the results depend on the processing

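Under the alternatives tried, and leaving aside those that cannot alter a single ratio, 104 of 184 ratios of single factors moved by more than their counting interval (about 2 SE) and 80 by less. None of the called ones changed sign, and Rax between fractions of the libraries labelled Ezh2-CKO turned from -0.036 to 0.234 and 0.179 after median and sum scaling. In Cd73N the number of factors called higher was 6 in place of 7 with a pseudocount of 5 and at 2-fold, where Nfib lost its call, and the median became 0.985 with a pseudocount of 5 and 1.341 after scaling to equal FPKM sums. In Cd73P the number higher was 3 with a pseudocount of 0.1 and 0 with a pseudocount of 5, a 2-fold threshold, or FPKM of at least 5 (2 factors left). The number lower was 1 with a pseudocount of 5, with 2-fold, with FPKM of at least 5 and without a pseudocount (4 factors left). Sox2 and Six6 lost their calls with a pseudocount of 5 and at 2-fold. The Cd73P median was 0.106 with a pseudocount of 5 and turned to -0.264 with FPKM of at least 5, where only Rax and Six6 remained. Between fractions of wild type, the median was -3.655 and -1.474 with pseudocounts of 0.1 and 5, -2.161 after median scaling and -2.140 after sum scaling, Rax was no longer called at 2-fold (0 higher), and 4 of 5 factors were lower without a pseudocount. In the libraries labelled Ezh2-CKO the median was -4.464 and -2.195 with pseudocounts of 0.1 and 5, -3.394 after median scaling and -3.906 without a pseudocount, where 4 of 5 were lower. Filters and the ratio without a pseudocount left fewer genes, and for the remaining moves the cause was not tested. The log2 factors of median and sum scaling between wild-type fractions were 0.337 and 0.426, which low genes follow only in part because of the added 1. No paired analysis was possible because each group had 1 library. Sox8, Sox9, Nfia and Nfib were below 1 FPKM in both Cd73P libraries, where their deposited bounds were wider relative to the value than in Cd73N.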
